A study of Mus musculus with 6 samples.

Results

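The genes of the RhoA, ROCK, LIMK and cofilin axis were examined in whole spinal cord of mice that lack Nogo-A. Every probe set the platform annotation names for Rhoa, Rock1, Rock2, Limk1, Limk2, Ssh1, Ssh2, Cfl1, Cfl2 or Dstn and no other gene was taken. These were 26 of the 45037 probe sets that are not controls. They stood for 9 of the 10 genes, because the annotation used here named no probe set for Rock2 alone. Of the 26 probe sets, 20 were bright enough to be tested among 23546 in all, and each of the 9 genes had at least 1 of them. The values came from 3 Nogo-A KO mice and 3 wild type mice of the C57Bl/6 strain, all male, 4 months old and untreated, with 1 Affymetrix Mouse 430 2.0 array for each animal. The labels do not say how the knockout allele was made.

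Nogo-A, made by oligodendrocytes and by certain neurons, sits in the myelin membrane and restrains neurite growth. Its receptors on the axon are known to raise the activity of RhoA, a small GTPase that switches on the ROCK kinases. ROCK phosphorylates the LIM kinases, these phosphorylate cofilin and so stop it from severing actin filaments, and the Slingshot phosphatases take that phosphate off again. The pathway is switched largely by GTP loading and by phosphorylation, which an expression array does not read. The arrays asked a narrower question, namely whether the messenger RNA of these proteins differed between the genotypes.

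No gene of the axis passed the test. The level of Cfl1, the cofilin of most tissues other than muscle, was about 1.3-fold higher in Nogo-A KO cords at both of its probe sets. A dimmer probe set of Limk1 was about 1.4-fold higher while its bright one was not, and the remaining genes differed by less than 1.2-fold at their brightest probe set. At a Benjamini-Hochberg adjusted p under 0.05 in limma, 0 of 20 tested member probe sets were higher and 0 were lower, where 0% of all tested probe sets were higher and 0.00425% were lower. With the p left unadjusted, 2 of 20 were higher in Nogo-A KO at p under 0.05, against 4.79% of all tested probe sets, and 0 were lower, against 3.47%. The 3 Nogo-A KO values lay above all 3 wild type values at 3 member probe sets, against 8.89% of all, and below them at 1, against 5.85%. Each of these counts lay within 2 probe sets of what the background share comes to among 20. Brighter probe sets leaned higher. With only those past a 75th percentile filter tested, 7.23% of all were higher at an unadjusted p under 0.05 in limma and 1.67% lower. Of the 17 member probe sets kept there, 1 was higher and 0 were lower.

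The median log2 change of the 20 member probe sets was 0.020, and that of all tested probe sets was 0.034. The median size of the change, either way, was 0.15 for the members and 0.16 for all. Changes of at least 1.2-fold were seen at 6 of the 20, of which 4 were higher and 2 lower, where 13.6% and 14.5% of all tested probe sets were that much higher and lower. The within-genotype SD had a median of 0.18 on the log2 scale for the members and 0.22 for all tested probe sets.

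**Figure D1:**
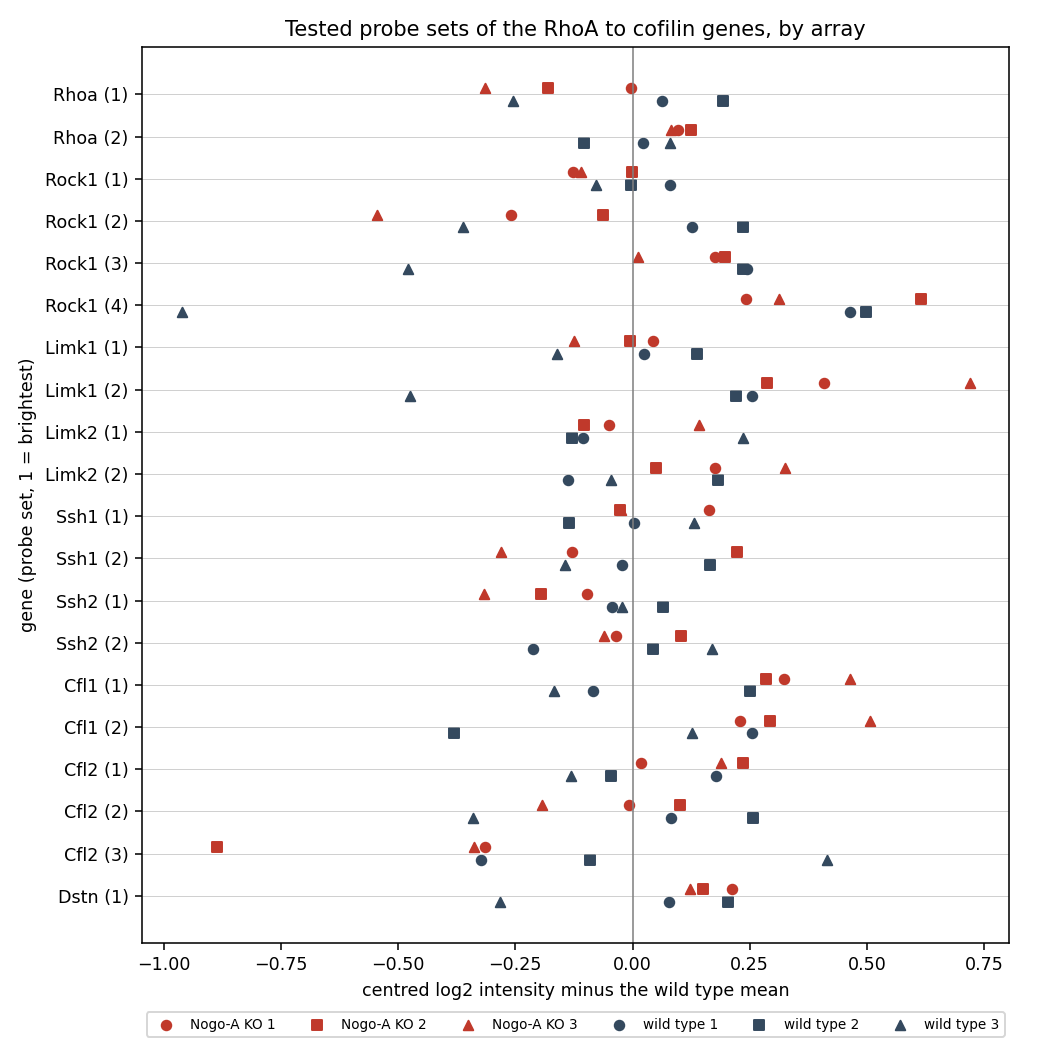
Centred log2 intensity of each tested probe set, as the difference from the wild type mean (x axis), with 1 row for each of the 20 probe sets of the 9 genes and 1 point for each array. Nogo-A KO points lie to the right of all wild type points at Rhoa (2), Limk1 (2) and Cfl1 (1), and to the left of them at Ssh2 (1).

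The targeted gene was examined first, as a check of the labels. Rtn4 encodes Nogo-A and the shorter Nogo-B and Nogo-C, and it had 5 probe sets. The third in brightness had 78.2, 9.17 and 5.08 in Nogo-A KO replicates 1 to 3, against 3560, 2790 and 2802 in wild type replicates 1 to 3, so that each knockout array lay far below each wild type array (limma adjusted p = 0.00945). All 3 Nogo-A KO arrays were below the median of their array there. Its fitted log2 change of -7.60 rests on these dim signals and is not used as a fold. Rtn4 was the single call across all tested probe sets, and it missed the threshold without Nogo-A KO replicate 2 (limma adjusted p = 0.0868), wild type replicate 1 (0.0575) or wild type replicate 2 (0.113). The other 4 probe sets of Rtn4 did not pass and had folds of 1.34 to 1.65, with all 3 Nogo-A KO values above all 3 wild type values at each. Where along the gene each probe set lies was not analysed here.

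The arrays differed from each other outside the axis. Array medians were 144.1, 149.0 and 143.8 in Nogo-A KO replicates 1 to 3 and 147.9, 169.2 and 195.4 in wild type replicates 1 to 3. Wild type replicate 3 had a mean correlation of 0.930 with the other arrays over tested probe sets, against 0.951 to 0.961 for the other 5. Of the 20 member probe sets, 8 had their lowest centred value on that array, where 35.3% of all tested probe sets did. The tissue markers were present, with 6 of 6 measured oligodendrocyte markers and 9 of 10 neuronal markers above the array median on all 6 arrays, the exception being the motor neuron gene Chat. Summed signals of oligodendrocyte markers were 119795 to 132532 in Nogo-A KO and 104788 to 109072 in wild type, and those of neuronal markers were 127932 to 132434 in Nogo-A KO and 106918 to 128248 in wild type. Those of 5 meningeal fibroblast markers were 9357 to 10444 in Nogo-A KO and 6348 to 8187 in wild type. In such whole tissue, a change in the number of cells of a type and a change in RNA per cell cannot be told apart.

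RhoA itself was read by a bright probe set (1450632_at), a second of like signal (1437628_s_at) and a dim one. The first had 4373, 3821 and 3500 in Nogo-A KO replicates 1 to 3, against 4491, 5046 and 3848 in wild type replicates 1 to 3. The genotypes overlapped, and the fold was 0.891 with a 95% interval of 0.726 to 1.09 (limma adjusted p = 0.742). The second had 4006, 4041 and 3937 in Nogo-A KO, against 3736, 3516 and 4151 in wild type.

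These second values overlapped as deposited, because wild type replicate 3 was the highest of all. After centring on each array's median the 3 Nogo-A KO values lay above the 3 wild type values, by a small margin, with a fold of 1.07 and an interval of 0.918 to 1.25 (limma adjusted p = 0.794). With quantile normalization the log2 change of this second probe set was -0.0031, so its direction depended on the scaling. The bright probe sets of Rhoa therefore lay on opposite sides of 0, at log2 changes of -0.17 and 0.10, each with an interval that included 0. The first probe set depended on single arrays, with a log2 change of -0.30 without wild type replicate 3 (unadjusted p = 0.0168, limma adjusted p = 0.337), of -0.079 without wild type replicate 2 and of -0.094 without Nogo-A KO replicate 3. The third had signals of 1.86 to 52.2 in Nogo-A KO and 8.38 to 56.6 in wild type, under the median of every array, and was not tested.

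Rock1 encodes 1 of the 2 kinases that RhoA activates, and 5 probe sets are named for it. The brightest (1450994_at) had 1506, 1623 and 1512 in Nogo-A KO replicates 1 to 3, against 1706, 1653 and 1633 in wild type replicates 1 to 3. As deposited, every Nogo-A KO value was below every wild type value, but the centred values overlapped, and the fold was 0.946 with an interval of 0.798 to 1.12 (limma adjusted p = 0.862). The second (1423444_at) had 983, 1115 and 802 in Nogo-A KO and 1261, 1396 and 961 in wild type, a fold of 0.819 (0.625 to 1.07, limma adjusted p = 0.675), with overlap between wild type replicate 3 and the Nogo-A KO arrays.

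The third (1423445_at) had 808, 810 and 716 in Nogo-A KO and 832, 848 and 538 in wild type, and the fourth (1460729_at) had 184, 236 and 192 in Nogo-A KO and 211, 222 and 83.9 in wild type. At both, wild type replicate 3 was the lowest array by a wide margin, while the other 2 wild type arrays exceeded all Nogo-A KO arrays at the third probe set and 2 of the 3 at the fourth. Their log2 changes were 0.13 and 0.39, and without wild type replicate 3 they were -0.11 and -0.092. The second probe set had a log2 change of -0.29, which was -0.47 without wild type replicate 3 (unadjusted p = 0.00790), -0.16 without Nogo-A KO replicate 3 and -0.18 without wild type replicate 2. The 4 tested probe sets of Rock1 thus ranged in log2 change over 0.68, and no single direction described the gene. The mean of all 4 gave a log2 change of 0.038 (SE 0.19). The fifth had 21.4 to 63.4 in Nogo-A KO and 39.6 to 97.4 in wild type and was not tested. Rock2, the other ROCK gene, was not analysed here.

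**Figure D2:**
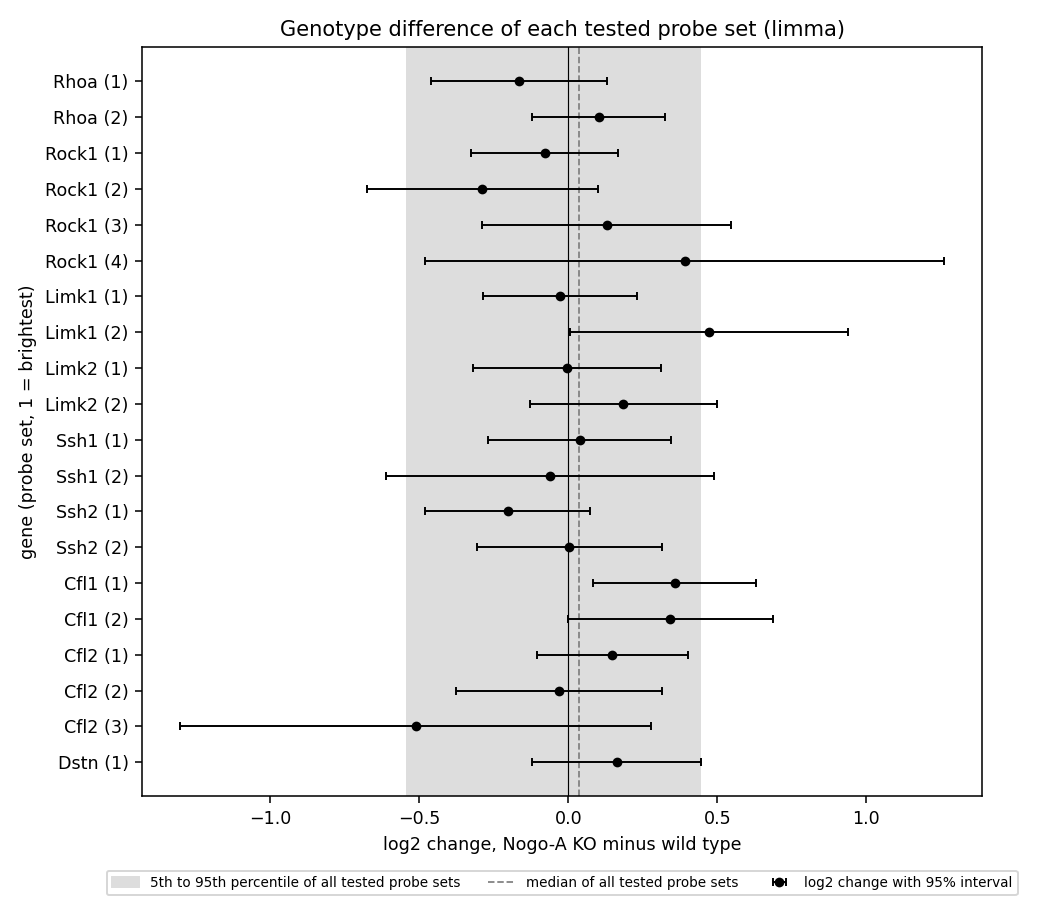
Log2 change, Nogo-A KO minus wild type, of each tested probe set with its 95% interval from limma (points and bars), over the range from the 5th to the 95th percentile of all tested probe sets, -0.54 to 0.44 (grey band). The interval includes 0 at 18 of the 20 probe sets, and Cfl1 (1) and Limk1 (2) are the exceptions.

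The LIM kinases, which phosphorylate cofilin, came next in the pathway. Limk1, the form most abundant in the nervous system, had 2356, 2250 and 2083 in Nogo-A KO replicates 1 to 3 at its brightest probe set (1417627_a_at), against 2281, 2534 and 2141 in wild type replicates 1 to 3. The genotypes overlapped throughout, with a fold of 0.980 and an interval of 0.820 to 1.17 (limma adjusted p = 0.961). The second probe set (1425836_a_at) had 554, 503 and 682 in Nogo-A KO and 489, 490 and 315 in wild type. All Nogo-A KO values lay above all wild type values there, although Nogo-A KO replicate 2 exceeded the highest wild type array by little.

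The fold of that second probe set was 1.39 (1.00 to 1.92, unadjusted p = 0.0480, limma adjusted p = 0.603). Wild type replicate 3 was much lower than the other arrays, and without it the log2 change was 0.23, against 0.47 with it, with an unadjusted p of 0.187. The mean of both probe sets had a log2 change of 0.22 (SE 0.14). The third probe set of Limk1 had 7.57 to 56.3 in Nogo-A KO and 13.4 to 33.8 in wild type and was not tested.

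Limk2, the more widely expressed LIM kinase, had 896, 853 and 1016 in Nogo-A KO and 846, 855 and 1144 in wild type at its brightest probe set (1418581_a_at). Its fold was 0.997 (0.802 to 1.24, limma adjusted p = 0.997). The second (1452060_a_at) had 817, 740 and 899 in Nogo-A KO and 645, 827 and 734 in wild type, a fold of 1.14 (0.914 to 1.41, limma adjusted p = 0.729), with overlapping genotypes. The third was below the median of every array and not tested, yet it separated the genotypes, with 82.0, 97.6 and 81.1 in Nogo-A KO, against 57.4, 40.9 and 51.6 in wild type. The 5th percentile of intensity was 4.57, 4.91 and 4.72 in Nogo-A KO replicates 1 to 3. It was 5.26, 10.5 and 20.0 in wild type replicates 1 to 3, a difference opposite in direction to that of this probe set. On a linear scale without detection calls, signals as dim as those of this probe set cannot be told from background here. What separated the genotypes there was not tested.

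The Slingshot phosphatases, which reactivate cofilin, showed small differences. Ssh1 had 768, 666 and 670 in Nogo-A KO replicates 1 to 3 and 675, 630 and 788 in wild type replicates 1 to 3 at its brightest probe set (1455854_a_at), a fold of 1.03 (0.830 to 1.27, limma adjusted p = 0.957). Its second probe set (1433874_at) had 202, 254 and 180 in Nogo-A KO and 213, 249 and 209 in wild type, a fold of 0.958 (0.654 to 1.404, limma adjusted p = 0.961). Both sets of values overlapped fully. The 2 untested probe sets of Ssh1 had 68.9 to 153 in Nogo-A KO and 37.2 to 210 in wild type, with wild type replicate 3 the highest at both.

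On centred values, Ssh2 was the one gene with a tested probe set at which every Nogo-A KO array lay below every wild type array. At its brighter probe set (1455078_at) it had 897, 829 and 765 in Nogo-A KO, against 915, 1012 and 991 in wild type. The fold was 0.869 (0.717 to 1.05, unadjusted p = 0.135, limma adjusted p = 0.676). The gap between Nogo-A KO replicate 1 and wild type replicate 1 was small beside the spread within each genotype. By the methods' t-test, the test with a single factor that the series' design text names, this probe set had an unadjusted p of 0.0470 but fell short of the 1.2-fold threshold set there. By both criteria together 0 of 20 member probe sets were higher and 0 were lower, where 2.74% and 2.45% of all tested probe sets were. Its second probe set (1456153_at) had 789, 859 and 770 in Nogo-A KO and 685, 840 and 953 in wild type, a fold of 1.00 (0.808 to 1.24, limma adjusted p = 0.998), and did not repeat the separation.

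Cofilin and its relatives, the proteins at the end of the axis that sever and depolymerise actin filaments, held the member that led the unadjusted list. Cfl1 had 16723, 16102 and 18314 in Nogo-A KO replicates 1 to 3 at its brightest probe set (1455138_x_at), against 12387, 16028 and 12490 in wild type replicates 1 to 3. All Nogo-A KO values lay above all wild type values, but wild type replicate 2 was nearly level with Nogo-A KO replicate 2. The fold was 1.28 (1.06 to 1.55, unadjusted p = 0.0147, limma adjusted p = 0.599).

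The second probe set of Cfl1 (1448346_at) had 5215, 5386 and 6275 in Nogo-A KO, against 5209, 3444 and 5092 in wild type. The fold was 1.27 (0.999 to 1.61, unadjusted p = 0.0506, limma adjusted p = 0.606), and on centred values wild type replicate 1 overlapped the Nogo-A KO arrays. In wild type replicate 2 the 2 probe sets disagreed, since it was the highest wild type array at the first and the lowest at the second. The log2 changes were 0.36 and 0.34, the closest pair among the 8 genes with more than 1 tested probe set, where the others differed by 0.099 to 0.68. The mean of both had a log2 change of 0.35 (SE 0.098, unadjusted p = 0.00446, adjusted p = 0.550 in limma over all genes).

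Quantile normalization lowered the log2 changes of Cfl1 to 0.21 and 0.22, more than 1.5 times smaller, and without wild type replicate 2 the second probe set had 0.14. The name of the first probe set ends in x_at, a mark that some of its probes may match other transcripts, so related sequences may share in its signal. The summed signals of oligodendrocyte and meningeal fibroblast markers were likewise higher on every Nogo-A KO array than on every wild type array. Of their genes, 2 of 6 and 4 of 5 were higher at an unadjusted p under 0.05 in limma, against 4.79% of all tested probe sets. The oligodendrocyte genes among these, Mbp and Cnp, were bright, with means of 39242 and 23678 in wild type. Bright probe sets leaned higher in general, as 7.23% were higher and 1.67% lower with the filter raised to the 75th percentile. The oligodendrocyte genes Mog and Cldn11 had log2 changes of -0.013 and -0.041. The fifth fibroblast marker, Lum, was lower, with a fold of 0.736 (unadjusted p = 0.0191), and of 9 tested neuronal markers 3 were higher at that p and 0 lower. Of 6 astrocyte markers 1 was higher, while 1 of 7 microglia and 1 of 6 endothelium markers were lower. The part of any of these cells in the Cfl1 values was not tested.

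**Figure D3:**
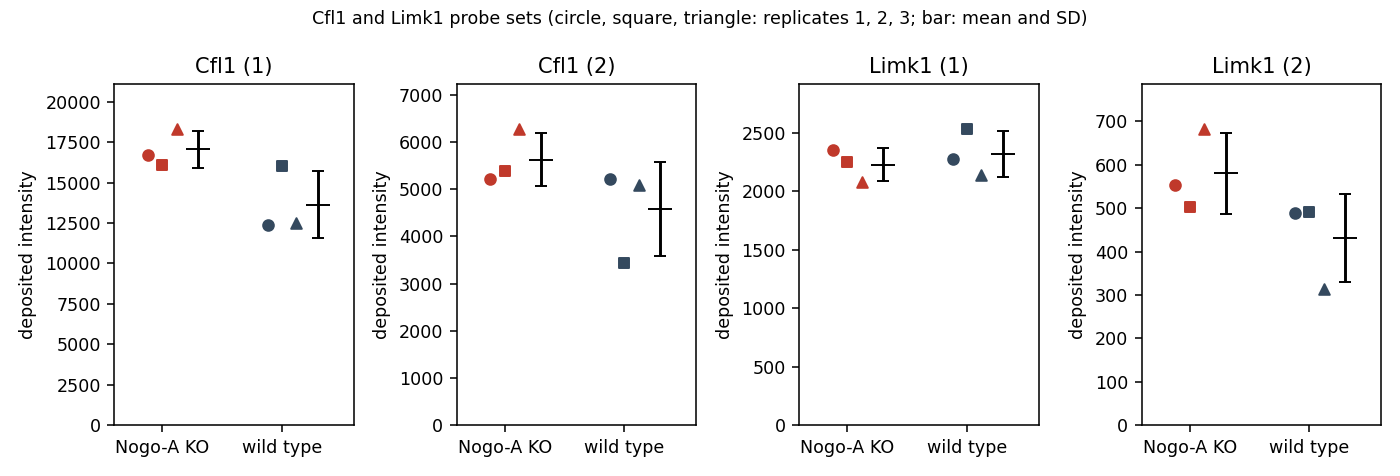
Deposited intensity of both tested probe sets of Cfl1 and of Limk1 on each array, Nogo-A KO at the left and wild type at the right of each panel, with mean and SD (bars, n = 3 each). Cfl1 averaged 17046 ± 1141 in Nogo-A KO and 13635 ± 2073 in wild type at probe set 1, and 5625 ± 569 in Nogo-A KO and 4581 ± 987 in wild type at probe set 2, while Limk1 averaged 2230 ± 138 in Nogo-A KO and 2319 ± 199 in wild type at probe set 1.

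Cfl2, the cofilin of skeletal muscle that other tissues also express, had 5919, 6811 and 6621 in Nogo-A KO replicates 1 to 3 at its brightest probe set (1418067_at), against 6490, 5713 and 5596 in wild type replicates 1 to 3. The fold was 1.11 (0.929 to 1.32, limma adjusted p = 0.731), with wild type replicate 1 inside the Nogo-A KO range. The second (1418066_at) had 1540, 1643 and 1345 in Nogo-A KO and 1609, 1864 and 1283 in wild type, a fold of 0.977 (0.769 to 1.24, limma adjusted p = 0.969). The third (1431432_at) was dim, with 144, 96.0 and 141 in Nogo-A KO and 141, 170 and 251 in wild type, and it reached the array median on 3 of 6 arrays. Its fold was 0.701 (0.406 to 1.21, limma adjusted p = 0.699), with overlapping genotypes. That log2 change of -0.51 was the largest in size among the 20 tested member probe sets.

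Because Cfl2 is a muscle cofilin, its values were set beside those of skeletal muscle genes, which marked 2 arrays. Acta1, the actin of skeletal muscle, had 657, 4593 and 536 in Nogo-A KO and 385, 754 and 2142 in wild type, while Myh4, a myosin of fast fibres, had 262, 2151 and 262 in Nogo-A KO and 117, 253 and 815 in wild type. Of 14 muscle markers 5 were above the array median on all 6 arrays, and over all 14 the summed signal ranged from 7504 to 25503 in Nogo-A KO and from 7125 to 14322 in wild type, with Nogo-A KO replicate 2 and wild type replicate 3 the highest of their genotype. Pvalb, 1 of these 5, was the brightest of the 14 on every array. It had 4870, 6349 and 4999 in Nogo-A KO and 5116, 5035 and 4866 in wild type, and so did not follow Acta1 and Myh4. The sum is therefore a poor guide to the level of muscle RNA on the other arrays. The bright Cfl2 probe set was highest of all on Nogo-A KO replicate 2 and lowest of all on wild type replicate 3. Without both arrays its log2 change was 0.036, against 0.15 with them, and the part of muscle RNA in the Cfl2 values was not tested further.

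**Figure D4:**
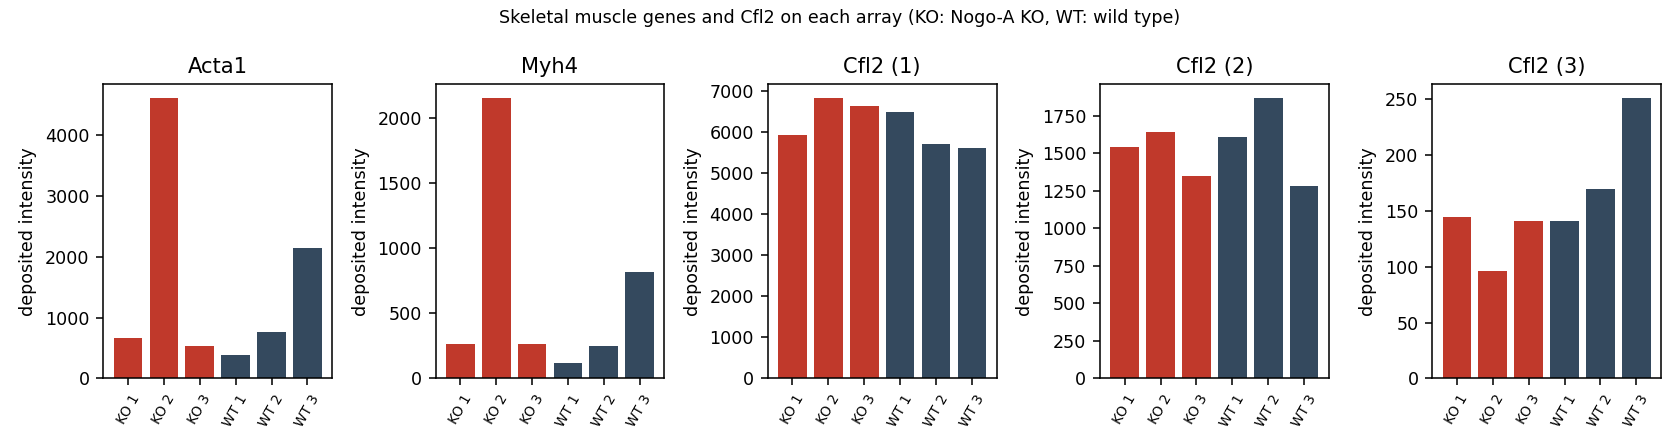
Deposited intensity of the skeletal muscle genes Acta1 and Myh4 and of the 3 probe sets of Cfl2 on each array (bars, Nogo-A KO in red and wild type in blue). Muscle genes are highest in Nogo-A KO replicate 2 and next in wild type replicate 3, and no Cfl2 probe set has its highest signals on both.

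Dstn encodes destrin, also called actin depolymerising factor, and had 1 probe set (1417124_at). It had 6425, 6092 and 5996 in Nogo-A KO, against 5748, 6442 and 4783 in wild type. Wild type replicate 2 was the highest of all arrays, so the genotypes overlapped, and the fold was 1.12 (0.920 to 1.36, limma adjusted p = 0.736). At their brightest probe sets all 3 actin-severing genes had folds above 1, at 1.28, 1.11 and 1.12 in the order Cfl1, Cfl2 and Dstn. None of the 3 passed, and for Cfl2 the mean of all its probe sets had a log2 change of -0.13. That mean included the dim probe set of Cfl2 (1431432_at), at -0.51, while its brighter probe sets had 0.15 (1418067_at) and -0.033 (1418066_at). The log2 change of Dstn was 0.16, and it was 0.018 when wild type replicate 3 was left out, 0.25 when wild type replicate 2 was, and 0.049 with quantile normalization. That of the bright Cfl2 probe set was 0.079 without wild type replicate 3 and 0.034 with quantile normalization.

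Promoter sequences of these 3 relatives are shown to give the sequence context of the gene that led and of the 2 most like it. Each covers 250 bases before to 50 after the RefSeq start (GRCm38.p6), on the strand of the gene, 5′ to 3′. Capitals mark GC boxes (GGGCGG) and CCAAT boxes (CCAAT) on either strand, and GC boxes may overlap each other.
Cfl1, chr19:5490205-5490504, plus strand: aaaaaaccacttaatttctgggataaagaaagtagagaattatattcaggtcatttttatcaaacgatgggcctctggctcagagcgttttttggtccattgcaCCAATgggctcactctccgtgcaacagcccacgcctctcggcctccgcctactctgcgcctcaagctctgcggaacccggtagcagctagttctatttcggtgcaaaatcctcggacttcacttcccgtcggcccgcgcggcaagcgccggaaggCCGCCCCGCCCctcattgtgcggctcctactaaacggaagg
Cfl2, chr12:54862828-54863127, minus strand: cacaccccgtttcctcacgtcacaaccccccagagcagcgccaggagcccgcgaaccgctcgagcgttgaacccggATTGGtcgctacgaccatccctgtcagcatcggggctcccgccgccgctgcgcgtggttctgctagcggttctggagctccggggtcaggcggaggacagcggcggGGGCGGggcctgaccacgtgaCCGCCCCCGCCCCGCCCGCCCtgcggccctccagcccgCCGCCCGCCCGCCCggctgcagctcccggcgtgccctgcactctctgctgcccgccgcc
Dstn, chr2:143915081-143915380, plus strand: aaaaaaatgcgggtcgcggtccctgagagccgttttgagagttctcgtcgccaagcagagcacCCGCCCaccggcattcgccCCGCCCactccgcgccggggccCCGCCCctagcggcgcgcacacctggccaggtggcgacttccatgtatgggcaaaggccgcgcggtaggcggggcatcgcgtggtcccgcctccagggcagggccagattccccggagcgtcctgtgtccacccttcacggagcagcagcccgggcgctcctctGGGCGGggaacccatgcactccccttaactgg
The Cfl1 window held 2 GC boxes and 1 CCAAT box, that of Cfl2 held 8 and 1, and that of Dstn held 4 and 0. GC content was 54.7%, 75.3% and 69.7% in that order. Among 14 windows of 9 genes of the axis, with Rock2 included and Rock1 left out, 11 held a GC box and 4 a CCAAT box, where 35.7% and 37.4% of 32851 windows of the same length held them. A TATA box (TATAAA, either strand) was in 1 of the 14 windows, at Rhoa, and in 13.6% of all windows, and the CArG box known to bind serum response factor was in 0 of 14 and in 1.63% of all. These matches are descriptions of the letters and not binding sites.

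At the brightest probe set of each of the 9 genes, 8 of the 9 intervals included a fold of 1. Cfl1 was the exception, at 1.06 to 1.55 before any adjustment. The lowest lower bound was 0.717, at Ssh2, and the highest upper bound was 1.55, at Cfl1. With 3 arrays a genotype, differences inside the interval of a given gene could not be resolved. The array medians over the members were 0.031, 0.10 and -0.0062 in Nogo-A KO replicates 1 to 3 and 0.043, 0.15 and -0.14 in wild type replicates 1 to 3, as centred log2 differences from the wild type means. They overlapped, and the spread among wild type arrays was wider than any shift between the genotypes.

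The probe sets whose pattern over the 6 arrays was most like that of Rhoa and Cfl1 were listed by Pearson's r of centred log2 values, as a description. For the bright Rhoa probe set these were Pigk (r = 0.997), Gla (r = 0.993), Rpl10a (r = 0.992), Slc25a5 (r = 0.989) and Mcm4 (r = 0.985), with genotype differences of -0.40 to -0.057 on the log2 scale and no adjusted p under the threshold. For the bright Cfl1 probe set they were Spag7 (r = 0.997), Fer (r = 0.996), Cops9 (r = 0.996), Endog (r = 0.994) and Tmsb10 (r = 0.993), with differences of 0.20 to 0.43. Tmsb10 encodes a thymosin that binds actin monomers, and Fer a tyrosine kinase. Of 23546 tested probe sets, 326 had an r over 0.9 with Rhoa and 261 with Cfl1. Those with an r as high as the listed ones were not counted, and 6 arrays are few for a correlation.

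The wider pathway was read from 9 lists of 103 genes around the axis, each gene at its brightest tested probe set. Of these genes 87 were tested and 0 passed the adjusted threshold in limma (smallest adjusted p = 0.599). By the unadjusted p, 6 genes were higher and 3 were lower at 0.05, against 4.79% and 3.47% of all tested probe sets, and the median log2 change was 0.049. Bright probe sets leaned higher in general. With the filter raised to the 75th percentile, 7.23% were higher and 1.67% lower at that p, with a median change of 0.075. The lists of cofilin partners and other cofilin phosphatases had the highest medians among those with more than 1 tested gene.

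**Figure D5:**
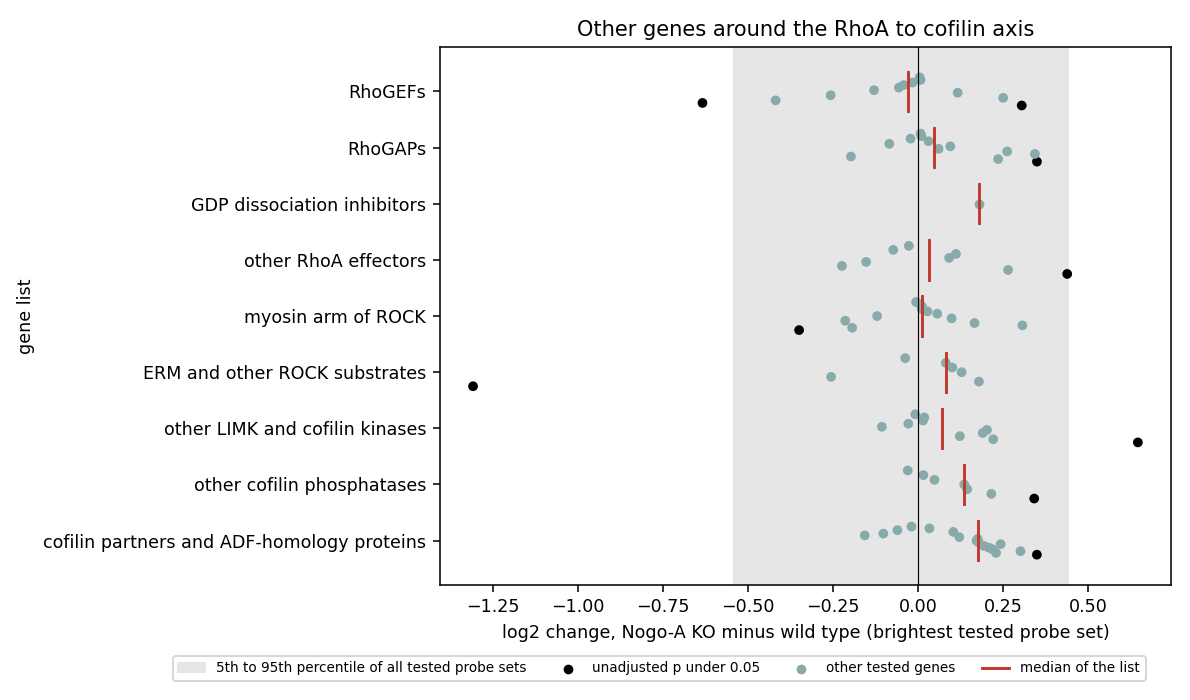
Log2 change, Nogo-A KO minus wild type, of 87 genes in 9 lists (points), the median of each list (red line) and the range from the 5th to the 95th percentile of all tested probe sets (grey band). Black points have an unadjusted p under 0.05, 6 on the higher and 3 on the lower side, and Ezr lies farthest from 0.

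The exchange factors that load RhoA with GTP had a median of -0.029 over 12 tested genes, with 1 higher and 1 lower. Arhgef25 averaged 1606 ± 36.9 in Nogo-A KO and 1324 ± 69.8 in wild type, a fold of 1.24. Arhgef1, which couples G protein receptors to RhoA, averaged 404 ± 98.9 in Nogo-A KO and 644 ± 200.02 in wild type, a fold of 0.645. Both had a limma adjusted p of 0.599, and the genotypes did not overlap at either. Over the mean of all probe sets of the gene the log2 changes were -0.092 for Arhgef25, against 0.31 at the brightest, and -0.037 for Arhgef1, against -0.63 at the brightest. That of Arhgef1 was -0.42 without wild type replicate 3 and also without Nogo-A KO replicate 1.

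The GTPase-activating proteins that turn RhoA off had a median of 0.046 over 12 genes, with 1 higher and 0 lower. That one was Arhgap35, or p190RhoGAP, with 938 ± 130 in Nogo-A KO and 746 ± 46.2 in wild type, a fold of 1.27 (limma adjusted p = 0.599). Arhgap24 followed with a fold of 1.18 (limma adjusted p = 0.680), or a log2 change of 0.24 that was 0.14 without Nogo-A KO replicate 1. Arhgdib, the single tested inhibitor of GDP dissociation of 3 listed, had a fold of 1.13 (limma adjusted p = 0.793), with log2 changes of 0.069 to 0.43 when arrays were left out.

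Other effectors of RhoA had a median of 0.032 over 8 genes. Cit, the citron kinase, averaged 2009 ± 473 in Nogo-A KO and 1489 ± 169 in wild type, a fold of 1.36 (limma adjusted p = 0.599), and Daam1, a formin, had a fold of 1.20 (limma adjusted p = 0.612), or a log2 change of -0.0041 over the mean of its probe sets. The log2 change of Cit was 0.44, and it was 0.26 without Nogo-A KO replicate 3 and 0.17 over the mean of its probe sets. The myosin arm of ROCK signalling had a median of 0.011 over 13 genes. Myl9, a regulatory light chain abundant in smooth muscle, averaged 1084 ± 37.4 in Nogo-A KO and 1434 ± 336 in wild type, a fold of 0.785 (limma adjusted p = 0.601), and Myh9, the heavy chain of a nonmuscle myosin, had a fold of 0.875 (limma adjusted p = 0.680). Their log2 changes were -0.35 and -0.19, and without wild type replicate 3 they were -0.22 and -0.11, while without wild type replicate 1 they were -0.52 and -0.30.

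Ezrin, radixin, moesin and other ROCK substrates had a median of 0.082 over 7 genes, with 0 higher and 1 lower. Ezr, a linker between actin and the plasma membrane, averaged 245 ± 93.9 in Nogo-A KO and 614 ± 213 in wild type, a fold of 0.404 (limma adjusted p = 0.599). It was lower in 3 of 3 Nogo-A KO arrays than in every wild type array. This probe set is one of the x_at kind, and over the mean of all probe sets of Ezr the log2 change was -0.52, against -1.31 here. Marcks, a membrane protein that cross-links actin, had a fold of 1.13 (limma adjusted p = 0.686), and a log2 change of 0.18 that was 0.082 without wild type replicate 3, 0.074 with quantile normalization and -0.098 over the mean of its probe sets.

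Further kinases and GTPases that act on LIMK or cofilin had a median of 0.071 over 10 genes. Cdc42bpb, the kinase MRCK beta, averaged 598 ± 100.1 in Nogo-A KO and 400.2 ± 130.1 in wild type, a fold of 1.57 with overlapping genotypes (limma adjusted p = 0.599), and Rac1 had a fold of 1.17 (limma adjusted p = 0.609). Other phosphatases and regulators of cofilin had a median of 0.14 over 7 genes, in which Pdxp, or chronophin, which dephosphorylates cofilin, averaged 2556 ± 386 in Nogo-A KO and 2058 ± 340 in wild type, a fold of 1.27 (limma adjusted p = 0.599). Ppp1ca, a catalytic subunit of protein phosphatase 1, had a fold of 1.16 (limma adjusted p = 0.628). The log2 change of Cdc42bpb was 0.65, and 0.38 without wild type replicate 2, while that of Pdxp was 0.34, and 0.22 without Nogo-A KO replicate 3. With quantile normalization the log2 change was 0.075 for Rac1, against 0.22, and 0.10 for Ppp1ca, against 0.22.

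The proteins that act on actin together with cofilin had a median of 0.18 over 17 genes. Of these, 13 had changes above 0, where 56.2% of all tested probe sets did. The genes were read at their brightest probe sets, and the median change of all probe sets past the 75th percentile filter was 0.075. One of the 17, Coro2b, a coronin, was higher at an unadjusted p under 0.05, with 1354 ± 182 in Nogo-A KO and 1083 ± 149 in wild type and a fold of 1.27 (limma adjusted p = 0.599). Actb, the beta actin gene, averaged 34273 ± 1187 in Nogo-A KO and 29827 ± 2576 in wild type, a fold of 1.17 (limma adjusted p = 0.620). The log2 change of Actb was 0.23, and it was 0.030 with quantile normalization, 0.13 without wild type replicate 3 and 0.14 over the mean of its probe sets. On centred values both were higher on every Nogo-A KO array than on every wild type array, as 4 of the 17 genes were, against 8.89% of all tested probe sets.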

How the data were processed

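Whole spinal cord RNA was labelled with biotin and hybridised to Mouse 430 2.0 arrays. The deposited values are linear intensities, which the authors computed in GCOS 1.4 by the MAS 5.0 algorithm (per the submitters' processing notes and the design text). Trimmed means near 500.0 on every array show a common scaling. Later steps in GeneSpring 7.2 are not part of these values, and present calls were not used here.

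Probe sets were tested if at least 2 of the 3 arrays of either genotype reached that array's 50th percentile, and 64 control probe sets were left out. Log2 intensities were centred on the median of the tested probe sets of each array. Centring on the median of all probe sets, the other reading of the design text, moved the median change by over 0.1. Genotypes were compared in limma 3.58.1 under R 4.3.3 (lmFit, eBayes with trend) with Benjamini-Hochberg adjustment over 23546 probe sets at 0.05. The code was checked on simulated data with known shifts and independent noise. Those data held no outlying array, so they do not show how the model copes with one. Folds and intervals come from this fit, and n is 3 animals for each genotype, whose number limits the precision. An exact permutation test of 3 against 3 cannot give a p below 0.1.

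Symbols came from the platform annotation, with 34754 of 35890 annotated probe sets updated through a RefSeq table of GRCm38.p6, and 9160 probe sets are unnamed here. A further 932 annotated probe sets lacked a single symbol and were assigned to no gene, so a member named on them would not be seen. Sequences are from RefSeq. The members, lists and tests were chosen with earlier results of these data known. The rule named every probe set of the members and of Rtn4, up to 2 genes of each list with the smallest unadjusted p, the 5 genes most like Rhoa and Cfl1, and Acta1 and Myh4. One further list is not reported here. Alternatives covered centring, quantile normalization, the filter, an offset, the trend, a replicate block, arrays left out, gene means and the methods' t-test.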

Additional observations from a re-analysis of the deposited data

How the results depend on the processing

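Under all alternatives run, 0 member probe sets passed the adjusted threshold, and Cfl1 (both probe sets) and Limk1 (probe set 2) kept a positive change. Of 42 single results, 14 changed sign at least once, and 9 of 20 member probe sets never did. For centring on all probe sets, each change was counted relative to the median change there of 0.23. The p values and counts of calls under that centring were not shifted. The methods named a t-test, run on the same values and replicates, which called 0 probe sets after adjustment. Dim signals limit the low probe sets. The causes of these shifts were not tested.

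Across all tested probe sets, calls higher in Nogo-A KO were 1 with centring on the median of all probe sets, 3 with the replicate block, and 0 to 1 with arrays left out, and calls lower were 0 without the trend, 0 by the methods' t-test and 0 to 2 with arrays left out. Member probe sets with an unadjusted p under 0.05 numbered 1 higher with deposited scaling, 1 with quantile normalization, 1 with the 75th percentile filter, 0 without the trend, 0 by the methods' t-test, 0 to 3 with arrays left out, and 3 with centring on all probe sets, no filter, the 25th percentile filter, the offset or the replicate block, against 2. Those lower numbered 1 with quantile normalization (Rhoa), 1 with the replicate block (Rock1 probe set 2, unadjusted p = 0.0393) and 0 to 2 with arrays left out. Same-numbered arrays deviated together with r of -0.034, 0.074 and 0.11 for replicates 1 to 3. The highest r of each Nogo-A KO array with a wild type array of another number was 0.026, 0.080 and -0.048. With 3 arrays a genotype, these values cannot settle whether the numbers pair the animals. The block ended no other call.

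Signs turned as follows on the log2 scale. Relative to the median change of 0.23 under centring on all probe sets, Ssh2 probe set 2 was -0.032. It was -0.024 with deposited scaling and -0.045 with quantile normalization, which also gave -0.0031 for Rhoa probe set 2 and 0.086 for Ssh1 probe set 2. The offset gave 0.0025 for Limk2 probe set 1. Means over all probe sets of a gene gave 0.038 for Rock1, 0.22 for Limk1, 0.090 for Limk2, -0.012 for Ssh1, -0.13 for Cfl2, -0.092 for Arhgef25, -0.0041 for Daam1 and -0.098 for Marcks. With arrays left out, 1 at a time or wild type replicate 3 and Nogo-A KO replicate 2 together, Rock1 probe set 3 ranged from -0.15 to 0.24, Rock1 probe set 4 from -0.20 to 0.63, Limk1 probe set 1 from -0.12 to 0.031, Limk2 probe set 1 from -0.079 to 0.16, Ssh1 probe set 1 from -0.039 to 0.13, Ssh1 probe set 2 from -0.28 to 0.045, Ssh2 probe set 2 from -0.11 to 0.085 and Cfl2 probe set 2 from -0.27 to 0.086.

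The unadjusted counts over all tested probe sets, 1127 higher and 818 lower, were 2800 and 263 with centring on all probe sets, which moved the median change to 0.23, 1322 and 2327 with no filter, 1269 and 1658 with the 25th percentile filter, 846 and 195 with the 75th, 800 and 1037 without the trend, 646 and 577 by the methods' t-test with its fold threshold, and between 400.0 and 2099 higher and 513 and 1519 lower with arrays left out. Rtn4 probe set 3 had an adjusted p of 0.547 without the trend and 0.691 by the methods' t-test.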
